A study of Bos taurus with 17 samples.

Results

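The genes described here are 10 that carry or control the synthesis of progesterone and oestradiol in the ovarian follicle: the cholesterol carrier STAR, the enzymes and electron carriers CYP11A1, FDX1, FDXR, HSD3B1, CYP19A1 and HSD17B1, and the nuclear receptors NR5A1, NR5A2 and NR0B1. They were found by name among the 21475 non-control probes of a bovine expression array. Each gene had 1 probe, so the set holds 10 probes. For 6 genes the symbol was the gene name given by the array's design, and the other 4 were identified through their accession or their description, because the design lists CYP19A1 as CYP19, HSD3B1 as HSD3B, NR0B1 as DAX-1 and NR5A2 by a sequence accession. All 10 probes were well above background on all 17 arrays and passed the filter on low values.

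Cumulus cells are the somatic cells that surround the oocyte. NC1 cells came from compact complexes of 6 prepubertal calves aged 3 to 6 months, aspirated after slaughter from follicles of 3 to 6 mm. C1 cells came from compact complexes of 6 adult cows of different ages, collected in the same way. C2 cells came from expanded complexes with a mature oocyte of 5 cycling, non-lactating Holstein cows aged 3 to 5 years. These cows carried a progestagen ear implant, received 400 µg in all of a porcine FSH and LH preparation and a prostaglandin F2α injection, and were aspirated in vivo 60 h after the prostaglandin from follicles over 8 mm. C2 differed from C1 in oocyte maturation, hormone treatment, follicle size and way of collection at once, so these cannot be told apart. NC1 oocytes are labelled developmentally incompetent, C1 oocytes competent and C2 oocytes fully competent.

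In the follicle, STAR moves cholesterol to the inner mitochondrial membrane, where CYP11A1 cleaves its side chain to give pregnenolone, with electrons passed by FDXR to FDX1 and on to CYP11A1. HSD3B enzymes turn pregnenolone into progesterone, whereas aromatase (CYP19A1) and HSD17B1 make oestradiol from the androgens of the theca. Granulosa cells of growing follicles mainly make oestradiol, and after the preovulatory surge of LH they turn to progesterone. NR5A1 and NR5A2 are nuclear receptors that activate many of these genes, and NR0B1 represses them.

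These genes are read through their probes alone, so the opening 30 of the 60 bases of the probes on which the results turn are given here as the deposited table prints them, all in lower case since no base within them is singled out.
STAR: cttttccaaactatgctactgtgtctttga
FDX1: tctggaggacggggggcttgagcttaaaca
HSD3B1: tggcagattctgagttatttgggcttcttg
CYP19A1: aatgcatatagataaggtaatctggtcctc
HSD17B1: tttgtgcgagagtctggcgattctgctgca
NR5A1: aggataacagagtttgcaaacttaggcaag
No genome build is named in the files used here, so no position is given. Each probe was printed in 2 spots on every array, and 1 probe per gene means that no second probe checks any of these values.

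Between 66.2% and 82.8% of the probes of an array were well above background. Of the 7 cumulus and granulosa markers, all but AMHR2 were well above the array median in the immature stages. FSHR stood between 4.50 and 5.91 there and FOXL2 between 7.04 and 8.63. AMHR2 was below the median on every immature array. TNFAIP6 of the expanded cumulus matrix was between 8.53 and 9.96 on every C2 array. The C2 arrays stood further apart from each other than those of the other stages. The SD of the log2 difference between 2 arrays over the 13865 valid probes lay between 0.431 and 0.756 for pairs within NC1 or C1, and reached 1.27 within C2, where only replicates 1 and 5 (0.444) and replicates 3 and 4 (0.512) were as close as immature arrays. C2 replicates 1, 2 and 5 were scanned on 1 day and C2 replicates 3 and 4 on another, and each day also held 3 NC1 and 3 C1 arrays.

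Both genes of oestradiol formation were lower in C2 by the test, and HSD17B1, which makes oestradiol from oestrone, was lower on every C2 array. Levels are given as log2 of the signal minus the array's median, so that 0 is the middle probe of the array and a difference of 1 is a 2-fold change. HSD17B1 stood at 8.10, 7.88, 8.21, 7.48, 7.54 and 7.94 on the NC1 arrays, at 8.12, 8.22, 8.07, 8.59, 7.96 and 8.45 on the C1 arrays, and at 2.47, 3.53, 1.06, 1.73 and 0.11 on the C2 arrays. Every C2 array lay far below every immature array, with no overlap. The mean was 7.86 ± 0.29 (SD, n = 6) in NC1, 8.24 ± 0.24 (SD, n = 6) in C1 and 1.78 ± 1.31 (SD, n = 5) in C2. In the limma fit, HSD17B1 was 87.8-fold lower in C2 than in C1 (log2 difference -6.46, SE 0.41, adjusted p = 1.34e-09) and 67.6-fold lower than in NC1 (-6.08, SE 0.41, adjusted p = 2.89e-09). The exact permutation p was 0.00433 for both comparisons, the smallest that 5 arrays against 6 allow. On the 5 slides that held a C2 and a C1 array, the C2 array was lower by a log2 difference between -8.01 and -4.43. Within scan days, the difference from C1 was -6.14 on day 1 and -6.90 on day 2. The fits within scan days, here and below, were added after the values were seen. Since these are bulk samples, fewer cells that express a gene and less RNA per cell cannot be told apart here or in the results that follow.

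CYP19A1, the aromatase, was also lower in C2 on average, but not on every array. It stood at 2.93, 3.48, 2.97, 2.05, 3.74 and 2.52 on the NC1 arrays and at 2.25, 1.89, 2.08, 3.28, 4.79 and 2.22 on the C1 arrays. On C2 replicates 1 to 5 it stood at -3.38, -1.15, 2.34, 2.43 and -3.74. Replicates 1, 2 and 5 were below all immature arrays, by 70.1-, 14.9- and 90.1-fold against the C1 mean, whereas replicates 3 and 4 lay within the range of both immature stages. On replicate 1 only 1 of the 2 spots was well above background, so the size of its fold is uncertain. The fitted log2 difference was -3.45 (SE 0.95, adjusted p = 0.00704) from C1 and -3.65 (SE 0.95, adjusted p = 0.00486) from NC1, whereas the exact permutation p was 0.0649 and 0.0173. The call against C1 was lost (adjusted p between 0.0101 and 0.0222) when C1 replicate 1, 3, 4, 5 or 6, or C2 replicate 1, 2 or 5, was left out, and that against NC1 (between 0.0104 and 0.0152) without NC1 replicate 2 or 5 or C2 replicate 1, 2 or 5. Within scan day 1 the log2 difference from C1 was -5.84 (adjusted p = 0.000773) and within day 2 it was -0.03 (adjusted p = 0.96), while the C1 arrays stood between 2.22 and 4.79 on day 1 and between 1.89 and 3.28 on day 2.

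**Figure D1:**
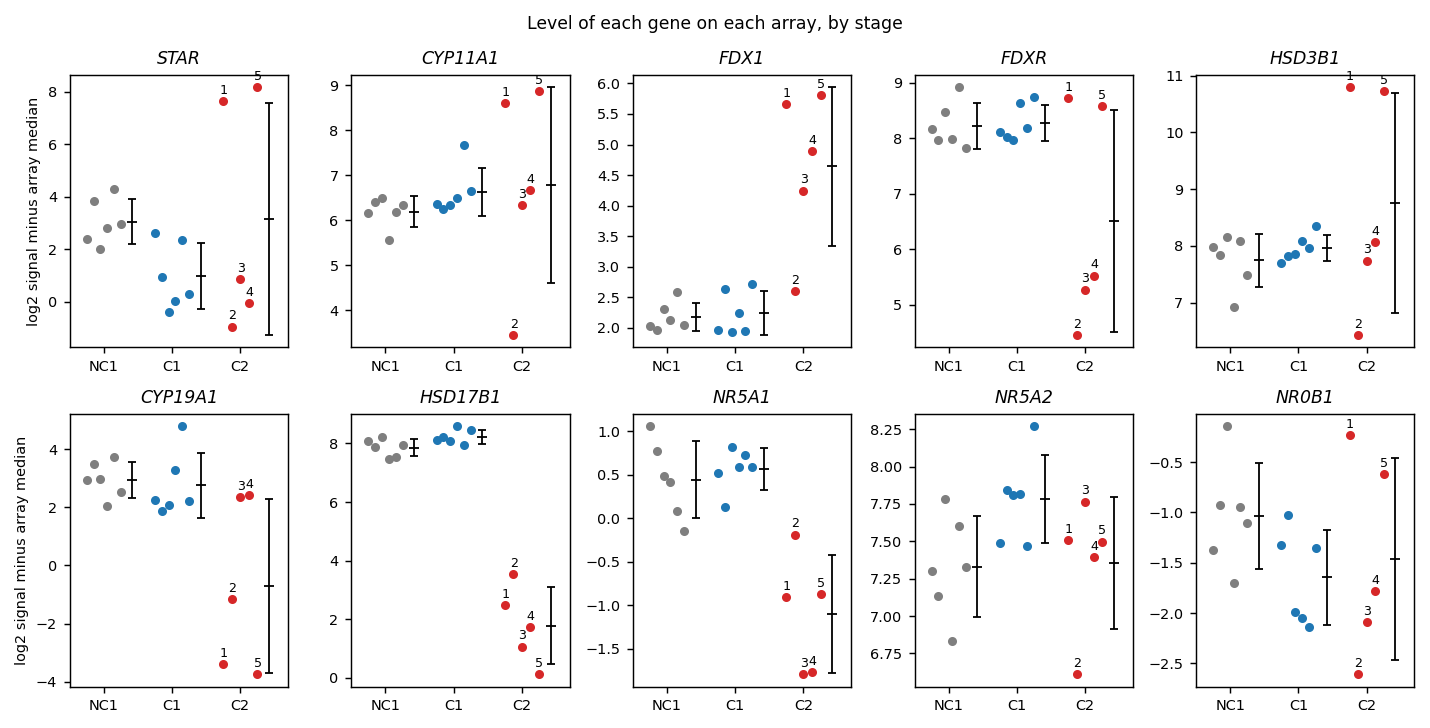
Level of each of the 10 genes on each array (log2 signal minus the array's median, vertical axis) by stage, with 6 NC1, 6 C1 and 5 C2 arrays as points in the order of their replicate numbers and the mean and SD of the stage as bars to their right. C2 points carry their replicate numbers. HSD17B1 fell on all 5 C2 arrays, whereas STAR, CYP11A1 and HSD3B1 were high on C2 replicates 1 and 5 alone. The vertical axes differ between panels.

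On the side of progesterone, STAR was the gene with the widest spread among C2 arrays. It stood at 2.40, 3.83, 2.02, 2.81, 4.32 and 2.99 on the NC1 arrays and at 2.63, 0.94, -0.38, 0.02, 2.36 and 0.32 on the C1 arrays. On C2 replicates 1 to 5 it stood at 7.66, -0.94, 0.87, -0.04 and 8.19. Replicates 1 and 5 were 102.5- and 148-fold above the C1 mean and above all 12 immature arrays, replicate 2 was below all of them, and replicates 3 and 4 lay within the C1 range. The mean of C2 was 3.15 ± 4.41 (SD, n = 5), against 0.98 ± 1.25 (SD, n = 6) in C1 and 3.06 ± 0.87 (SD, n = 6) in NC1. The fitted difference of C2 from C1 was 2.17 on the log2 scale (95% interval -0.66 to 5.00, adjusted p = 0.212) and from NC1 0.09 (-2.74 to 2.92, adjusted p = 0.967), so neither passed the test, and these intervals include no change as well as large ones. Within scan day 2, a split added after the values were seen, C2 is only replicates 3 and 4, which lie close together. There STAR was lower than in NC1 by a log2 difference of -2.19 (limma adjusted p = 0.00092), and the difference from C1 was 0.22 (adjusted p = 0.691). Within scan day 1 the difference from NC1 was 1.45 (adjusted p = 0.626).

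HSD3B1, which forms progesterone, was also highest on C2 replicates 1 and 5 and lowest on replicate 2. It stood between 6.92 and 8.16 on the NC1 arrays (median 7.91) and between 7.70 and 8.36 on the C1 arrays (median 7.92). C2 replicates 1 to 5 stood at 10.80, 6.43, 7.74, 8.07 and 10.73. Replicates 1 and 5 were 7.13- and 6.78-fold above the C1 mean and above all immature arrays, and replicate 2 was below all of them. The fitted differences did not pass the test (0.79 from C1, 95% interval -0.44 to 2.02, adjusted p = 0.303, and 1.01 from NC1, -0.22 to 2.24, adjusted p = 0.182).

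CYP11A1, the side-chain cleavage enzyme, stood between 5.56 and 6.49 on the NC1 arrays (median 6.26) and between 6.24 and 7.67 on the C1 arrays (median 6.42). C2 replicates 1 to 5 stood at 8.60, 3.45, 6.33, 6.67 and 8.86. Replicates 1 and 5 were again above all immature arrays (3.93- and 4.72-fold above the C1 mean) and replicate 2 below all of them, with 9.06-fold less than the C1 mean. The differences of the stage means did not pass the test (0.16 from C1, 95% interval -1.23 to 1.54, adjusted p = 0.865, and 0.59 from NC1, -0.79 to 1.98, adjusted p = 0.506).

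The electron carriers that serve CYP11A1 differed from each other in C2. FDX1 (adrenodoxin) stood between 1.96 and 2.58 on the NC1 arrays, between 1.93 and 2.72 on the C1 arrays, and at 5.66, 2.60, 4.24, 4.89 and 5.80 on C2 replicates 1 to 5. C2 was above every NC1 array on all 5 arrays and above every C1 array on 4, with replicate 2 inside the C1 range. FDX1 rose 5.29-fold against C1 (log2 difference 2.40, SE 0.41, adjusted p = 0.000133) and 5.53-fold against NC1 (2.47, SE 0.41, adjusted p = 0.000108), with exact permutation p of 0.013 and 0.00433. The size was 2.48 within scan day 1 (adjusted p = 0.0349, 9 arrays) and 2.30 within scan day 2 (adjusted p = 4.35e-05) against C1.

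FDXR (adrenodoxin reductase) stood between 7.82 and 8.92 on the NC1 arrays, between 7.98 and 8.74 on the C1 arrays, and at 8.72, 4.45, 5.27, 5.53 and 8.58 on C2 replicates 1 to 5. Here replicates 1 and 5 were the arrays that stayed within the immature range, and replicates 2, 3 and 4 were 14.1-, 8.01- and 6.72-fold below the C1 mean. The fitted differences were -1.76 from C1 (SE 0.60, adjusted p = 0.0251) and -1.71 from NC1 (SE 0.60, adjusted p = 0.0297) and missed the threshold of 0.01. They passed it when C2 replicate 1 (adjusted p = 0.00206 against C1 and 0.00253 against NC1) or replicate 5 (0.003 and 0.00368) was left out.

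**Figure D2:**
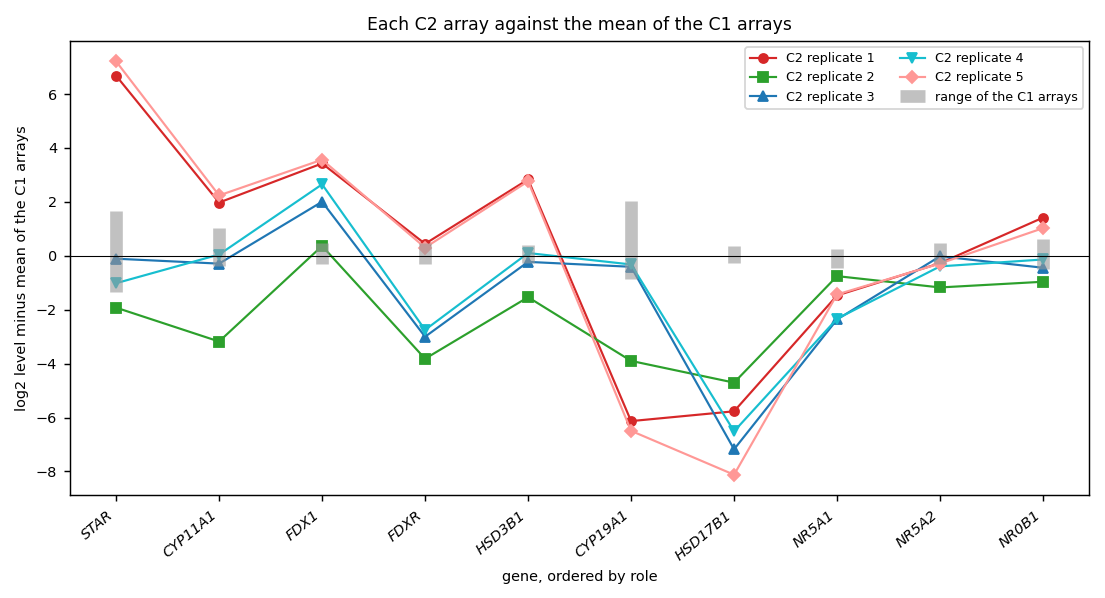
Each of the 5 C2 arrays as a line, in log2 difference from the mean of the 6 C1 arrays (vertical axis), over the 10 genes ordered by role (horizontal axis). Grey bars are the range of the C1 arrays. Replicates 1 and 5 run together from 6.68 and 7.21 for STAR to -6.13 and -6.49 for CYP19A1, replicates 3 and 4 run together near 0 for STAR, CYP11A1, HSD3B1 and CYP19A1, and all 5 lines are far below 0 for HSD17B1.

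Read array by array, C2 replicates 1 and 5 had STAR, CYP11A1, FDX1 and HSD3B1 above all 12 immature arrays, and CYP19A1, HSD17B1 and NR5A1 below all of them. C2 replicates 3 and 4 had FDX1 above all 12 and HSD17B1, FDXR and NR5A1 below all 12, with the other 6 genes within the immature range. C2 replicate 2 had no gene above all 12 and 9 of the 10 below all 12, FDX1 being the exception. The share of all valid probes beyond all 12 on a single C2 array was not counted. These counts therefore cannot be called particular to the 10 genes. Over the 10 genes the median size of the log2 difference was 0.202 between replicates 1 and 5 and 0.332 between replicates 3 and 4, and between 1.61 and 3.31 for the other pairs of C2 arrays. These sets of arrays were seen in the values and are no groups of the study, so no test was made between them. LHCGR, the LH receptor, chosen after its values were seen, has 2 probes, and both were well above background on C2 replicates 1 and 5 (-1.23 and -1.84 for the brighter probe, -3.12 and -3.82 for the other) and not well above background on C2 replicates 2, 3 and 4 or on any NC1 array. The brighter probe was well above background on 1 C1 array and the other on none, and neither passed the filter for a test.

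Markers of other cell types were read on the same arrays. The theca marker CYP17A1 stood at 2.15, 2.10, 1.34, 1.65 and 2.25 on C2 replicates 1 to 5, against 1.76 to 2.45 on the C1 arrays, so that replicates 1 and 5 were the highest of the C2 arrays but within the C1 range. The other theca marker, INSL3, stood at 6.19, 7.40, 6.39, 6.87 and 6.89 on these arrays. It was lowest on replicate 1 and highest on replicate 2. The summed level of the 2 theca markers lay between 6.28 and 7.43 in C2, 7.21 and 7.94 in C1, and 6.46 and 7.88 in NC1. The summed level of the 7 stroma and smooth muscle markers lay between 7.46 and 8.93 in C2, between 6.52 and 7.15 in C1 and between 6.89 and 7.63 in NC1, and it was not highest on replicates 1 and 5. Marker by marker, however, 5 of these 7 had replicates 1 and 5 as their 2 highest C2 arrays. ACTA2 stood at 4.74 and 3.29 on replicates 1 and 5 and between 1.05 and 1.83 on the other three. PDGFRA stood at 4.64 and 3.52 and between 0.83 and 1.45, and COL3A1 at 4.28 and 3.06 and between -2.93 and 0.82. DCN and MYH11 had the same 2 arrays highest, while LUM and COL1A1 had them lowest.

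The summed level of the 5 endothelial markers lay between 1.35 and 3.49 in C2, between 0.14 and 0.44 in C1 and between 0.24 and 1.33 in NC1. Of these, VWF had replicates 1 and 5 highest in C2, at 2.46 and 1.94 with -3.60 to -2.94 on the other three. KDR had them lowest, at -0.19 and 0.64 with 0.98, 3.21 and 3.42 on replicates 2, 3 and 4, and so had PECAM1, at -5.08 and -3.66 with -3.33 to -3.05, while CDH5 was not well above background on any array. The higher sum in C2 did not hold for every marker. KDR rose by 3.58 against C1 (limma adjusted p = 1.69e-05), and VWF, PECAM1 and TEK did not pass. TEK stood between -2.23 and -1.39 in C2, -1.40 and -0.53 in C1, and -0.80 and 0.30 in NC1. Against NC1 it fell by 1.61 (limma adjusted p = 1.85e-05). The summed level of the 6 leukocyte markers lay between 1.93 and 3.56 in C2, between 1.33 and 2.01 in C1 and between 1.79 and 2.74 in NC1. It was highest on replicates 1 and 5, at 3.20 and 3.56, with 3.18 and 3.17 on replicates 3 and 4, and 2 of the 6 markers had these arrays as their 2 highest. The summed level of the 7 cumulus and granulosa markers was lowest on replicates 1 and 5, at 10.82 and 10.75, with 11.95, 12.56 and 12.66 on replicates 2, 3 and 4 and a range of 11.94 to 12.62 in C1 and 12.06 to 13.18 in NC1. The part of these markers in the results was not tested.

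Of the 3 regulators, NR5A1 (steroidogenic factor) was lower on all C2 arrays. It stood at 1.06, 0.77, 0.48, 0.42, 0.08 and -0.14 on the NC1 arrays, at 0.53, 0.13, 0.82, 0.60, 0.73 and 0.59 on the C1 arrays, and at -0.91, -0.19, -1.80, -1.77 and -0.87 on the C2 arrays. No C2 array overlapped an immature array, although replicate 2 (-0.19) lay just under the lowest NC1 array (-0.14). NR5A1 fell 3.18-fold against C1 (log2 difference -1.67, SE 0.28, adjusted p = 9.64e-05) and 2.93-fold against NC1 (-1.55, SE 0.28, adjusted p = 0.000212), with an exact permutation p of 0.00433 in both. Within scan day 1 the difference from C1 was -1.27 (adjusted p = 0.0187) and within day 2 -2.30 (adjusted p = 4.35e-05).

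NR5A2 (liver receptor homologue) passed the test in no comparison. It stood between 6.84 and 7.78 in NC1, between 7.47 and 8.27 in C1, and at 7.51, 6.61, 7.77, 7.39 and 7.50 on the C2 arrays, so that the stages overlapped. The fitted difference of C2 from C1 was -0.43 (95% interval -0.89 to 0.04, adjusted p = 0.132). It passed the threshold, at -0.56 and -0.62, when arrays were scaled by their 75th percentile (adjusted p = 0.00832) or by quantiles (0.00429), and the former scaling moved the median of all probes in C2 against C1 by -0.13.

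NR0B1 (DAX-1), the repressor, stood between -1.70 and -0.14 in NC1, between -2.14 and -1.02 in C1, and at -0.23, -2.61, -2.09, -1.78 and -0.62 on the C2 arrays. C2 replicates 1 and 5 were above all C1 arrays but not above all NC1 arrays. The differences of C2 did not pass the test (0.18 from C1, 95% interval -0.62 to 0.98, adjusted p = 0.733, and -0.43 from NC1, -1.23 to 0.37, adjusted p = 0.391).

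Counted over the set, 1 of the 10 genes was higher in C2 than in C1 (FDX1), where 15.3% of all valid probes were, and 3 of 10 were lower (CYP19A1, HSD17B1 and NR5A1), where 12.8% of all were. Against NC1 the same genes passed, 1 of 10 higher with 15.5% of all probes and 3 of 10 lower with 12.6%. C2 and C1 arrays did not overlap for 2 genes (HSD17B1 and NR5A1), with 21.6% of all probes, and C2 and NC1 arrays for 3 (those and FDX1), with 20.9%. The comparisons of C2 share the C2 arrays and are not independent. The median log2 difference of the 10 genes from C1 was -0.14, against 0.02 over all valid probes. By the F test over the 3 stages, CYP19A1 (adjusted p = 0.00684), HSD17B1, FDX1 and NR5A1 passed, 4 of 10 where 28.6% of all valid probes did. CYP19A1 was lost from this count with the one-factor test that the methods name, which left 3 genes. A one-factor test with unequal spreads, added after the values were seen, left HSD17B1 alone. In both of these tests fewer of all valid probes passed, too, than by the F test.

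**Figure D3:**
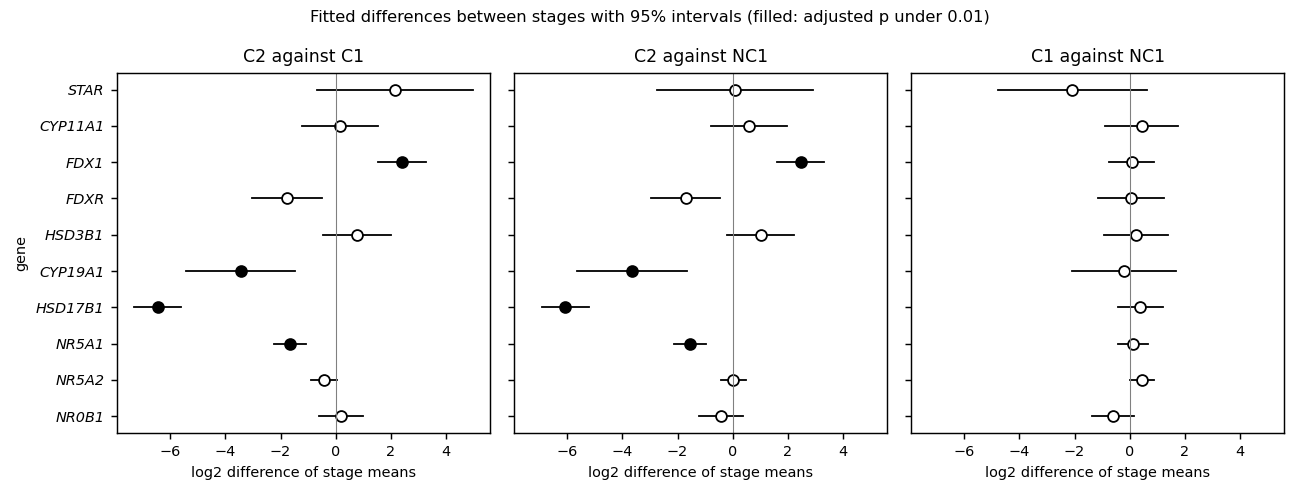
Fitted log2 difference of stage means (horizontal axis) for the 10 genes (vertical axis), for C2 against either immature stage and for C1 against NC1, with 95% intervals from limma. Filled points passed an adjusted p of 0.01: FDX1 to the right and CYP19A1, HSD17B1 and NR5A1 to the left in both comparisons of C2, and none in C1 against NC1.

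Between the immature stages, C1 against NC1, none of the 10 genes passed the test, where 0.00721% of all valid probes were higher and 0.0505% lower. At an unadjusted p under 0.05 in limma there was 1 of 10, with 1365 of the 13865 valid probes. It was NR5A2, with a log2 difference of 0.45 (95% interval 0.01 to 0.90, adjusted p = 0.489). STAR had the largest difference. It was 4.22-fold lower in C1 than in NC1 (log2 difference -2.08, 95% interval -4.78 to 0.62, adjusted p = 0.65), with 4 of 6 C1 arrays below all NC1 arrays and an exact permutation p of 0.013. The C1 array was below the NC1 array on each of the 6 slides, by a log2 difference between -3.18 and -1.47.

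The spread of STAR in the fit is shared with the C2 arrays. In a fit of the NC1 and C1 arrays alone, added after the values were seen, the difference of STAR had an SE of 0.51 in place of 1.28. Its adjusted p was 0.0401. The fits within a scan day kept the C2 arrays of that day. In them the difference was -2.41 on day 2 (SE 0.38, limma adjusted p = 0.00834) and -1.75 on day 1 (SE 1.96, adjusted p = 0.999). The summed level of 6 oocyte markers, among them GDF9 and ZP3, lay between 5.22 and 6.44 in NC1, between 2.30 and 5.07 in C1 and between 1.70 and 2.94 in C2, so that the sum was higher in NC1 on every array. Among the single markers ZP3 (4.37 to 5.55 in NC1, 2.07 to 4.11 in C1), NLRP5 (2.81 to 4.30 and -1.09 to 2.63) and BMP15 (-2.94 to -0.88 and -6.96 to -3.05) did not overlap. GDF9 (1.12 to 2.11 and -3.26 to 1.31) and ZP2 (2.82 to 3.96 and -6.93 to 2.91) did, and DAZL was not well above background on any NC1 array. BMP15, ZP2 and DAZL did not pass the filter for a test. The part of these markers in the difference of STAR was not tested. HSD17B1 was higher in C1 than in NC1 on all 6 slides by 0.08 to 0.59 (exact permutation p = 0.039, limma adjusted p = 0.816). CYP19A1, CYP11A1, FDX1, FDXR, HSD3B1 and NR5A1 differed between the immature stages by -0.20 to 0.44, and NR0B1 by -0.61 (95% interval -1.37 to 0.15), with intervals that included 0.

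Of the genes that bring cholesterol to the pathway, 15 were listed, 13 were on the array and 12 were valid. In C2 against C1, 4 of the 12 were higher (15.3% of all valid probes), none was lower (12.8% of all) and 8 did not pass, with a median log2 difference of 0.35. TSPO, a protein of the outer mitochondrial membrane, stood between 5.15 and 5.75 in C1 and at 9.46, 7.63, 7.44, 7.32 and 9.03 on the C2 arrays (log2 difference 2.82, SE 0.32, adjusted p = 1.59e-06). Its 2 highest arrays were replicates 1 and 5, as for STAR, but all C2 arrays were above all C1 arrays. SCARB1, the receptor for high-density lipoprotein, rose by 2.78 (SE 0.33, adjusted p = 2.43e-06) and stood between 1.70 and 3.66 in C2. STARD5, a relative of STAR, rose by 2.50 (SE 0.26, adjusted p = 5.38e-07) and was lowest in C2 at 2.59, above the highest C1 array at 1.04. ACBD3 also rose, with overlap between arrays.

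Among 45 other enzymes of steroid metabolism, 33 were on the array and 20 were valid. In C2 against C1, 7 of the 20 were higher (15.3% of all valid probes), 4 were lower (12.8% of all) and 9 did not pass, with a median log2 difference of 0.76. HSD11B1, which activates glucocorticoids by reduction, stood between -1.96 and -0.62 in C1, between -2.57 and -0.38 in NC1, and at 4.74, 4.05, 4.24, 4.63 and 5.63 on the C2 arrays. It rose by 5.97 (SE 0.38, adjusted p = 1.41e-09) against C1, on all 5 C2 arrays, including those where STAR was low. HSD17B10 (1.55), HSD17B7 (1.23) and CYP21A2 (0.82) rose without overlap as well. AKR1B1, which can reduce prostaglandin and steroid substrates, fell by 2.81 on the log2 scale (SE 0.18, adjusted p = 1.34e-09), with C2 between 4.94 and 5.85 and C1 between 8.18 and 8.38. HSD17B8 fell by 1.01 and CBR1 by 0.95. CYP17A1, which makes androgens in the theca, showed a difference of -0.25 (SE 0.19, adjusted p = 0.312).

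Of 29 other regulators and hormone receptors, 26 were on the array and 24 were valid. In C2 against C1, 5 of the 24 were higher (15.3% of all valid probes), 7 were lower (12.8% of all) and 12 did not pass. The count of higher genes was near that share. FSHR, the FSH receptor, stood between 5.40 and 5.91 in C1 and at 1.76, 2.83, 2.01, 2.04 and 1.62 on the C2 arrays (log2 difference -3.55, SE 0.23, adjusted p = 2.31e-09). FOXL2, a transcription factor of granulosa cells, stood between 7.78 and 8.63 in C1 and between 5.02 and 5.37 in C2 (-2.99, SE 0.20, adjusted p = 3.56e-09). Both genes also belong to the list of cumulus and granulosa markers, so that list and this one are not separate. TCF21 fell by 2.03, NCOA2 by 1.87 and CTNNB1 by 1.27. NR2F1 (COUP-TFI) rose by 2.66 (SE 0.42, adjusted p = 6.27e-05), RUNX2 by 2.00, CITED2 by 1.76 and NCOA1 by 0.77 (adjusted p = 0.00908), although another probe of NCOA1 did not give the same call. In C1 against NC1 none of the 56 valid genes of these lists passed the test.

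**Figure D4:**
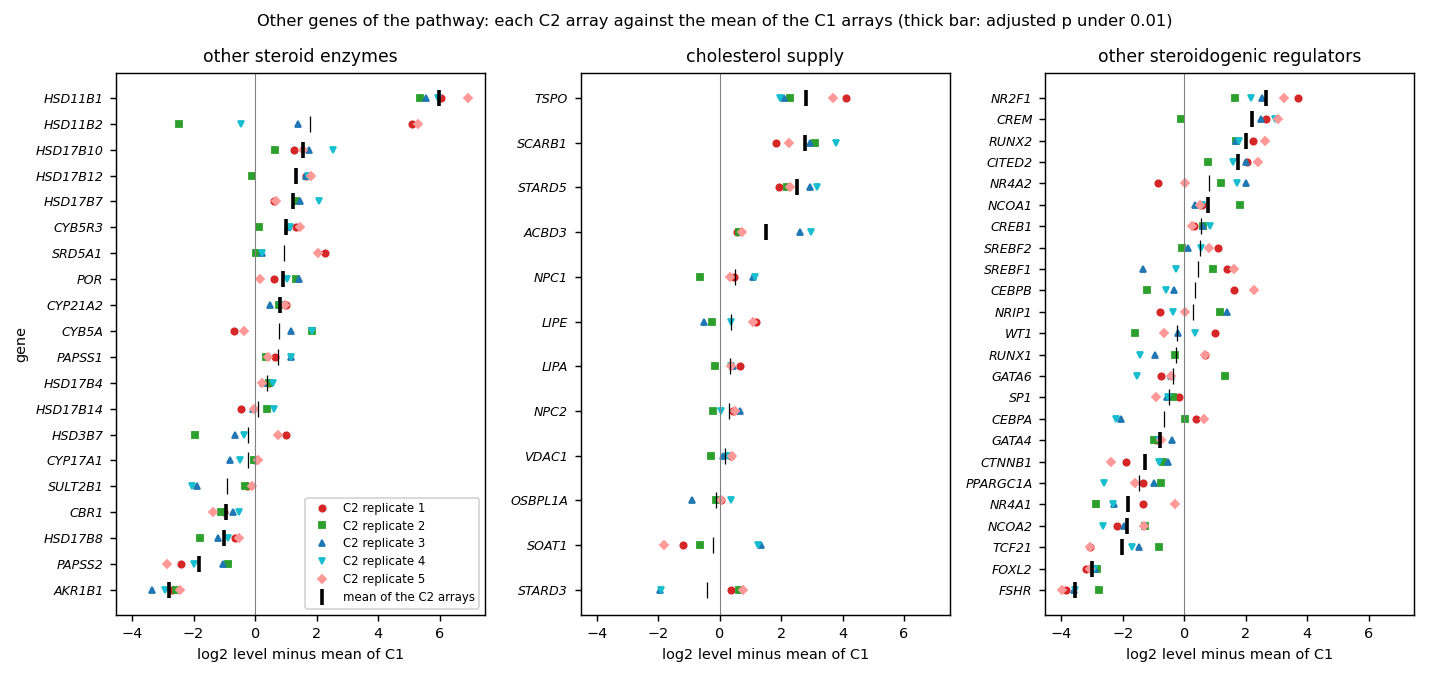
Each C2 array (symbols) in log2 difference from the C1 mean (horizontal axis) for the valid genes of the lists of other steroid enzymes (20), cholesterol supply (12) and other regulators (24), ordered by the mean of the C2 arrays (black bars, thick where the adjusted p is under 0.01). All 5 arrays of HSD11B1, TSPO, FSHR and FOXL2 lie on 1 side of 0, whereas HSD11B2 has replicates 1 and 5 above 5 and replicate 2 below -2. HSD11B2 was well above background on 4 of the 5 C2 arrays.

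Among the valid probes with a gene name, those with the pattern most like STAR over the 17 arrays, by the root mean square difference of log2 levels after each was centred on its own mean, were XCL1 (0.794), HSD11B2 (0.950), GFRA2 (0.972), GATA3 (1.03) and RGS1 (1.14), where the median over all was 2.56. XCL1, a chemokine, stood at 7.52 and 7.73 on C2 replicates 1 and 5 and at -1.69, 1.38 and 0.47 on replicates 2, 3 and 4. HSD11B2, which inactivates cortisol, stood at 2.13 and 2.31 on replicates 1 and 5 and at -5.45, -1.60 and -3.44 on the others, against -4.90 to -2.06 in C1. It was well above background on 4 of the 5 C2 arrays and 5 of the 6 C1 arrays, so its lowest values may be background. For CYP19A1 the nearest were CCND2 (0.939), ESCO2 (0.941), PCLAF (0.941), TNNI3 (0.972) and ACSL6 (0.998), where the median over all was 2.36. CCND2, a cyclin of the cell cycle, stood at 1.66 and 1.37 on C2 replicates 1 and 5, at 4.17 on replicate 2, and at 6.12 and 6.47 on replicates 3 and 4, against 5.90 to 6.68 in C1. These patterns are set by the C2 arrays above all, and with 5 such arrays the likeness is a description.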

How the data were processed

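The authors labelled cumulus cell RNA with Cy3 and hybridised 1 Agilent 1-colour array per sample (17 samples). The authors deposited linear intensity values per spot from Agilent Feature Extraction 10.5.1.1, background-subtracted and not scaled between arrays, and a table of log2 values scaled by each array's median, which differs from the spot values by a constant per array. The precision is limited by the number of arrays.

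Here log2 of the processed signal was averaged over a probe's spots and the array's median subtracted. A probe was valid when present (well above background, uniform, unsaturated, on at least 50% of its spots) on 80% of the arrays of each stage (13865 of 21475 probes). No spot was saturated. The 3 stages, as the labels give them, were fitted in limma 3.58.1 (R 4.3.3), with Benjamini-Hochberg adjustment over all valid probes and a threshold of 0.01. Single probes had a 2-sided exact permutation test of group means (scipy 1.17.1). The fit was tested on simulated data. Gene lists used the brightest valid probe of a gene. Named list genes were up to 5 rises and 5 falls per list, past the threshold without overlap in C2 against C1. The members and lists were chosen with earlier results of these data known. Replicates are different animals in the methods. Alternatives were other scalings, filters, covariates and left-out arrays. A gene of the cholesterol supply list is not reported here and was left out of its counts.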

Additional observations from a re-analysis of the deposited data

Results flagged for a closer look

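A single array stood apart from the rest of its stage, by Dixon's 95% critical value, in 2 of the 30 combinations of gene and stage examined, where chance flags about 1 in 20. CYP11A1 on C1 replicate 5 stood at 7.67, against 6.66 for the next array (gap over range 0.708), and CYP11A1 on NC1 replicate 4 stood at 5.56, against 6.16 for the next (0.641). No C2 array stood apart by this criterion. It sets the gap to the nearest array against the range, so 2 close arrays hide each other. For STAR, C2 replicates 1 and 5 differed by 0.53 in a C2 range of 9.13.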

How the results depend on the processing

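The number of the 10 genes past the threshold was 4 in C2 against C1, 4 in C2 against NC1, 0 in C1 against NC1 and 4 by the F test, and stayed within 3 to 5 for the first, second and last under the other scalings, filters, blocks and weights and the deposited table, with 3 to 4 when single arrays were left out and 0 throughout for C1 against NC1. With the replicate number as a block, CYP19A1 lost its call (adjusted p = 0.0139 against C1 and 0.0106 against NC1), leaving 3 genes in each. The numbers did not pair the samples (correlations of same-numbered deviations between -0.317 and 0.252). Settings chosen after seeing the data moved counts further. Arrays of scan day 1 alone left 2 genes in each comparison of C2 and 2 by the F test. Arrays of scan day 2 alone gave 1 gene in C1 against NC1 (STAR), and the one-factor test with unequal spreads left 1 gene. The counts over all probes moved the same way in these settings. They fell on scan day 1 and with unequal spreads, and rose in C1 against NC1 on scan day 2. Lower counts there are therefore not particular to these 10 genes. The normexp background correction moved CYP19A1 against NC1 to -2.15 (adjusted p = 0.0104), and array weights moved HSD3B1 against NC1 to 1.91 (adjusted p = 0.00603).

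Signs turned only for differences that had not passed the test, and the cause was not tested. STAR in C2 against NC1 was -0.058 with 75th percentile scaling, -0.048 with quantile normalization, -0.13 with scan day as a covariate, -2.19 on scan day 2 and -0.59 with close C2 arrays (1 with 5, 3 with 4) averaged, and -1.17 to 1.11 when single arrays were left out. NR5A2 in C2 against NC1 was -0.12 with 75th percentile scaling, -0.24 with quantile normalization, -0.14 on scan day 1 and -0.10 with close arrays averaged (left-out arrays -0.078 to 0.21). CYP11A1 in C2 against C1 was -0.018 with quantile normalization and -0.40 with close arrays averaged (-0.36 to 0.99). NR0B1 was -0.25 on scan day 2 and -0.011 with close arrays averaged against C1 (-0.13 to 0.47), and 0.13 with array weights against NC1. HSD3B1 against C1 was -0.019 on scan day 2. In C1 against NC1, FDX1 was -0.0053 with array weights (-0.030 to 0.15), FDXR -0.037 with quantile normalization and -0.011 on scan day 1 (-0.040 to 0.19), NR5A1 -0.023 on scan day 1 and CYP19A1 0.065 with the normexp correction. The mean over several probes of a gene could not be tried, since each gene has 1 probe. The lowest level of CYP19A1 was -3.74. The dimmest single probe well above background on a C2 array lay between -6.42 and -5.48, which is no floor for every probe. The brighter LHCGR probe, at -3.64 on C2 replicate 2, was not well above background. The fold sizes of CYP19A1 on C2 replicates 1 and 5 may therefore be limited by background.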
